A study of Mus musculus with 13 samples.

Results

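The genes examined here are those that encode collagen chains, chosen by name alone: every gene whose symbol has the form Col, a number, the letter a and a number. 44 of the 20270 genes in the tables met that rule, and all 44 were present in both the count table and the TPM table. By the structure of the protein they were split into 11 fibrillar chains, 6 basement membrane chains of type IV, 9 FACIT chains, 6 chains of type VI, 3 short chains that form networks, 1 anchoring fibril chain, 2 multiplexins, 4 transmembrane chains and 2 others. The rule itself uses no measured value, but the genes and classes were chosen with earlier results of these data known.

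Collagens are proteins of the extracellular matrix in which 3 chains wind into a triple helix. Fibrillar collagens (types I, III and V) give connective tissue its tensile strength and are laid down in excess in a scarred lung, whereas type IV collagen forms the sheet-like network of the basement membrane beneath epithelium and endothelium. FACIT collagens sit on the surface of fibrils, type VI forms beaded filaments beside cells, multiplexins lie in and near basement membranes, and transmembrane collagens stay anchored in the cell surface. A chain is hydroxylated and folded in the endoplasmic reticulum, its propeptides are cut off outside the cell, and lysyl oxidases then cross-link the fibrils.

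The 13 libraries of lung RNA were each taken to be of a separate mouse. The 4 control mice were wildtype (WT) C57BL/6J males given sterile saline, the 5 WT bleomycin mice had the same genotype, and the 4 CB1R KO bleomycin mice lacked Cnr1, the gene of the cannabinoid receptor CB1R, in the whole body on a C57Bl/6J background. Bleomycin, an antitumour antibiotic that injures the lung, was given once through the oropharynx at 1 U per kg, and lungs were taken on day 14. The WT mice were 13 weeks old, and the age of the CB1R KO mice was not given in the sources used here, nor were CB1R KO mice without bleomycin analysed. Libraries are named by the numbers in their labels and values are always listed in the order 3, 21, 24 and 26 for controls, 4, 2, 5, 4-B2 and 7 for WT bleomycin, and 8, 9, 10 and 11 for CB1R KO.

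Total estimated counts ranged from 14615904 to 16662580 in 12 libraries, and CB1R KO library 11 held 53463884. Cnr1 itself was listed at 0.403 to 1.05 TPM in controls, 0.848 to 1.85 TPM in WT bleomycin and 0.648 to 1.499 TPM in the libraries labelled CB1R KO. The files do not show which part of the gene was counted, so Cnr1 is no check of the genotype and directions rest on the labels. TPM is a transcript's share of the library, a level scaled for gene length and library size, and it is the scale on which genes are compared with one another. Fold changes come from the estimated counts by the quasi-likelihood test of edgeR, with p-values adjusted by the Benjamini-Hochberg method over the 15315 genes that passed a filter on low counts, and a gene is called changed at an adjusted p under 0.05. All values are of unsorted tissue of the lower right lobe of the lung, in which fewer cells of a type and less RNA per cell cannot be told apart.

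39 of the 44 genes passed the filter. The other 5 were near the detection limit in every group: Col2a1, the cartilage fibril chain, had 0 to 13 estimated counts per library, Col9a1 had 0 to 8, Col9a2 0 to 9, Col19a1 0 to 2 and Col25a1 2 to 18. A list of 10 cartilage markers summed to 7.09 to 21.1 TPM per library, most of it from Chad. Acan and Matn1, which define cartilage, were at 0 to 0.148 and 0 to 0.106 TPM. Of the 4 markers that passed the filter, 3 (Hapln1, Sox9 and Comp) rose in WT bleomycin and 0 fell, beside 25.0% and 23.9% of all genes tested. The summed level of the list was 18.8 ± 2.77 TPM (SD, n = 4) in controls and 16.3 ± 2.57 TPM (SD, n = 5) in WT bleomycin. The part of these markers in the collagen values was not tested. In controls the levels of the measurable genes ran from Col11a1, at 0.0175 to 0.0469 TPM, to Col4a1 at 189 ± 14.5 TPM and Col4a2 at 177 ± 15.9 TPM (SD, n = 4 each), the chains of the main basement membrane trimer.

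Promoter sequences from RefSeq (GRCm38.p6, 250 bases before to 50 bases after each gene's start) were found for 35 of the 44 genes. The stretches printed run 5′ to 3′ on the gene's own strand and stop at the base before the start, or 51 bases before it where another start lies nearby. Capitals mark 3 motifs searched on both strands: the CCAAT box, the TATA box in the form TATAAA, and the GC box in the form GGGCGG. Col1a2 and Col3a1 are shown as the major fibrillar chains, Col6a1 and Col6a3 as 2 chains of 1 trimer whose ratio moved with bleomycin, and Col4a5 and Col4a6 as neighbours that moved in opposite directions.
Col1a2 (chr6:4505368-4505617, plus strand): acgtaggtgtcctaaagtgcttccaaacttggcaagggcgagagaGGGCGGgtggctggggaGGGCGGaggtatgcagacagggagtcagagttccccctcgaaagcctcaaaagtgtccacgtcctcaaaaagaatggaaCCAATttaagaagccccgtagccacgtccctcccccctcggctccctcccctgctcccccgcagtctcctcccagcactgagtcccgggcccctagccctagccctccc
Col3a1 (chr1:45311288-45311537, plus strand): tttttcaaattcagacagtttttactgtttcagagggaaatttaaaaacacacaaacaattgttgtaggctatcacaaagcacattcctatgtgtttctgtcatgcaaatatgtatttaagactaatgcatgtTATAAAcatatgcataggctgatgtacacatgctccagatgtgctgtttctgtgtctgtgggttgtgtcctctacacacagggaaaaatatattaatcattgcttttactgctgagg
Col6a1 (chr10:76726045-76726294, minus strand): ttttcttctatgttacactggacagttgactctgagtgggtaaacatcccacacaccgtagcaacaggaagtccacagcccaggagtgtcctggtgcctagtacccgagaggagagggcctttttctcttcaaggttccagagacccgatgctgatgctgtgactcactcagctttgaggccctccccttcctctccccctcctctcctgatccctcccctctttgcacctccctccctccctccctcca
Col6a3 (chr1:90844022-90844221, minus strand): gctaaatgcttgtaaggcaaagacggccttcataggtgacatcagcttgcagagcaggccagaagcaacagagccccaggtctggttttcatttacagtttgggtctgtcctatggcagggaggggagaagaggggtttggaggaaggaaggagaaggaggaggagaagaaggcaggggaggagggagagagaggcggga
Col4a5 (chrX:141475169-141475368, plus strand): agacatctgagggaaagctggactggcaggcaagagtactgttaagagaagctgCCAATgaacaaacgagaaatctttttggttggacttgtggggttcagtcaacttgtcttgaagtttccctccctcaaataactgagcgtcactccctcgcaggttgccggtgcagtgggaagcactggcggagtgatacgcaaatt
Col4a6 (chrX:141474127-141474326, minus strand): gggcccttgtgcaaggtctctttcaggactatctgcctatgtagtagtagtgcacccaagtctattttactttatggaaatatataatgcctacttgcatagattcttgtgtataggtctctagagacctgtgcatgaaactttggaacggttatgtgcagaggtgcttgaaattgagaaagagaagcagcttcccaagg
In Col1a2 the motif GGGCGG begins 205 and 188 bases before the start and CCAAT 109 bases before it. Col3a1 holds TATAAA 117 bases before its start and Col4a5 holds CCAAT 196 bases before, while the stretches printed for Col6a1, Col6a3 and Col4a6 hold none of the 3. Over the whole 300-base windows, CCAAT occurred in 13 of the 35 collagen genes and in 37.4% of all 32851 promoters, TATAAA in 5 and in 13.6%, and GGGCGG in 22 and in 35.7%. These are matches of letters and no factor was measured at them.

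The first question was how bleomycin changed collagen expression in WT lungs. Collagen transcripts together rose from 1283 ± 136 TPM (SD, n = 4) in controls to 4402 ± 493 TPM (SD, n = 5), which was 0.151% and 0.524% of all TPM in the table. Of the 39 genes tested, 27 (69.2%) were higher and 5 (12.8%) lower in WT bleomycin than in control lungs, where 25.0% and 23.9% of all genes tested were called in the same directions. The median log2 fold change over the 39 genes was 1.20, and that over all genes was -0.01. In the transmembrane class 3 of 3 genes tested were lower. Cell type markers moved as well. In WT bleomycin 6 of 8 macrophage markers were higher, and 6 of 8 type II cell and 7 of 7 cardiac and striated muscle markers lower. Macrophage sums were 603, 1922, 672 and 671 TPM in controls and 1657 to 2227 TPM in WT bleomycin, with control 21 inside that range. Of 8 endothelial markers 6 were lower and 1 higher. Of 12 fibroblast markers 2 were higher and 5 lower, and of 8 smooth muscle markers 3 were higher and 1 lower. Type I cell markers (2 higher and 3 lower of 8) and mesothelial markers (1 higher and 3 lower of 7) were also mixed. Of 7 adipocyte markers 3 were lower and 0 higher, and of 6 basal cell markers 1 was higher and 0 lower. The part of these markers in the collagen values was not tested.

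**Figure D1:**
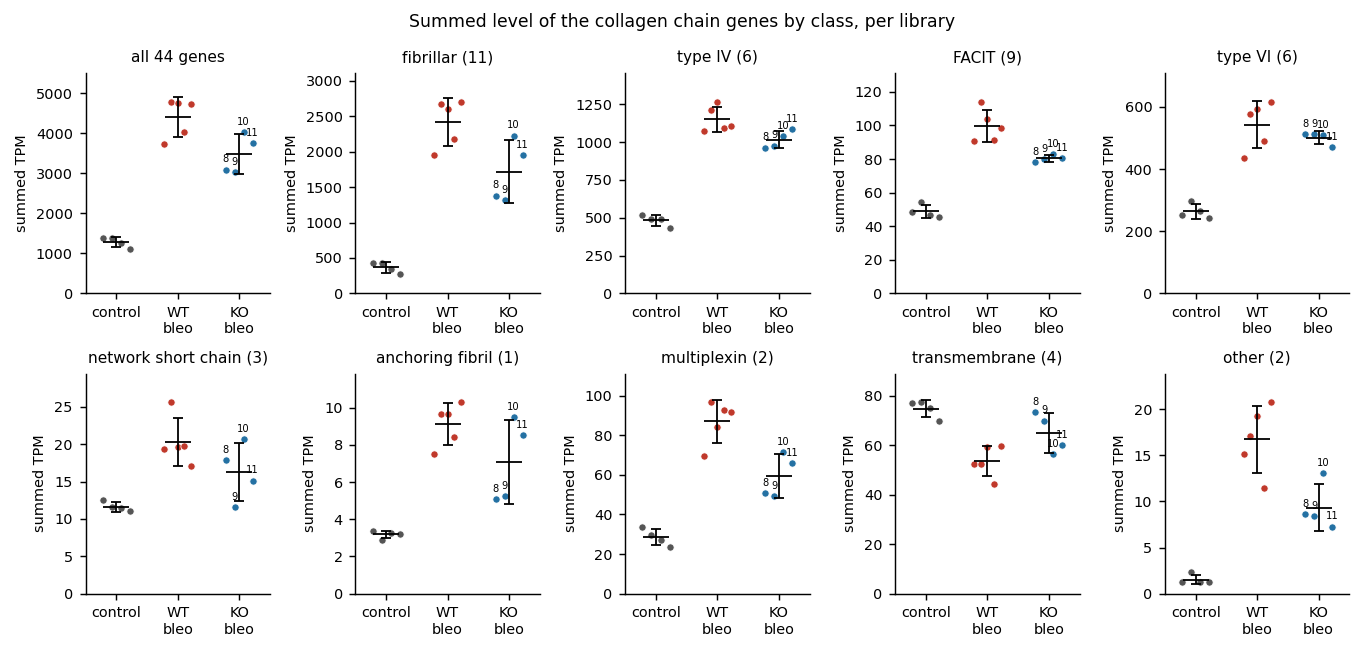
Summed TPM of the collagen chain genes in each library, for all 44 genes and for each class (number of genes in brackets). Each point is 1 library, bars are the mean ± SD, axes start at 0, and the numbers name CB1R KO libraries. The fibrillar sum lies between 268 and 434 TPM in controls and between 1955 and 2704 TPM in WT bleomycin, the transmembrane sum is lower in WT bleomycin than in every control, and CB1R KO libraries 8 and 9 lie below 10 and 11 for the fibrillar class.

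Fibrillar chains changed the make-up of the collagen pool. In controls the type IV class was the largest, with 37.7% ± 1.91 of collagen TPM (SD, n = 4), followed by the fibrillar class with 28.4% ± 3.28. In WT bleomycin lungs the fibrillar class held 54.9% ± 1.78 (SD, n = 5) and type IV 26.3% ± 2.03. The shares of type VI (20.7% ± 1.68 to 12.3% ± 0.500) and of transmembrane collagens (5.86% ± 0.371 to 1.22% ± 0.129) were lower in every WT bleomycin library than in every control. A share can fall while the level rises, as for type VI, whose summed level was 264 ± 23.8 TPM in controls and 543 ± 76.3 TPM in WT bleomycin.

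Of the 10 fibrillar genes tested, 8 rose and Col11a2 and Col27a1 did not pass the test, at log2 fold changes of 0.03 and 0.06. Col1a1, which encodes the chain of which each type I molecule holds a pair, stood at 75.8, 69.2, 51.0 and 35.9 TPM in controls, 375, 542, 565, 489 and 617 in WT bleomycin and 212, 208, 479 and 405 in CB1R KO libraries. Every bleomycin library was above every control, and CB1R KO 8 and 9 were below all WT bleomycin libraries while 10 and 11 were within their range. Col1a1 was 8.77-fold higher in WT bleomycin than in control (log2 fold change 3.13, standard error 0.29, adjusted p = 1.28e-06, quasi-likelihood test of edgeR, Benjamini-Hochberg adjusted, as for every adjusted p that follows). Col1a2, the partner chain of type I, was at 121, 144, 117 and 103 TPM in controls, 505, 693, 676, 568 and 735 in WT bleomycin and 323, 321, 586 and 552 in CB1R KO libraries. The order of the groups was the one seen for Col1a1, again with CB1R KO 8 and 9 below every WT bleomycin library. Its log2 fold change in WT bleomycin was 2.40 (standard error 0.20, adjusted p = 4.61e-07 by edgeR).

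Col3a1, the chain of type III collagen and the most abundant collagen transcript of WT bleomycin lungs, measured 176, 159.8, 129 and 89.9 TPM in controls, 849, 1102, 1049, 852 and 1056 in WT bleomycin and 695, 641, 906 and 788 in CB1R KO libraries. No bleomycin library overlapped the controls, and 3 of 4 CB1R KO libraries were below the WT bleomycin range. Its level in WT bleomycin was 6.96-fold that in control (log2 fold change 2.80, standard error 0.19, adjusted p = 1e-07 by edgeR). Type V chains, which join type I in mixed fibrils, also rose, 5.66-fold for Col5a1, 7.36-fold for Col5a2 and 8.14-fold for Col5a3. The last of these gave 2.64, 1.83, 1.30 and 1.31 TPM in controls, 11.96, 17.5, 14.2, 15.9 and 14.2 in WT bleomycin and 7.29, 6.18, 12.9 and 8.22 in CB1R KO libraries. Controls were far below all others, and 3 of 4 CB1R KO libraries lay under the lowest WT bleomycin library for Col5a3.

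The largest changes belonged to scarce chains. Col11a1, a fibrillar chain best known from cartilage, was listed at 0.0457, 0.0449, 0.0175 and 0.0469 TPM in controls, 0.325, 1.015, 0.853, 0.715 and 1.004 in WT bleomycin and 0.148, 0.173, 1.37 and 0.501 in CB1R KO libraries. All bleomycin libraries exceeded all controls, which held 1 to 4 estimated counts each, and CB1R KO spread over a wider range than WT bleomycin. Its log2 fold change of 4.89 in WT bleomycin had a standard error of 0.81 (adjusted p = 0.000197 by edgeR) and rests on 8 counts in all 4 controls. Col24a1, a fibrillar chain of unusual structure, was at 0.0159, 0.0936, 0.116 and 0.0755 TPM in controls, 1.20, 1.54, 1.80, 1.149 and 2.62 in WT bleomycin and 1.29, 0.755, 2.36 and 0.916 in CB1R KO libraries. Groups with bleomycin overlapped each other and not the controls, and the log2 fold change was 4.22 (standard error 0.35, adjusted p = 5e-07 by edgeR). For both genes the scales differ: estimated counts per TPM varied between libraries by 2.03 on the log2 scale for Col11a1 and by 1.11 for Col24a1, whereas TPM corrects for the length of the transcripts to which reads were assigned. From mean TPM the rise of Col11a1 was smaller by 0.56 on the log2 scale than from counts and that of Col24a1 was larger by 0.24.

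Type IV chains did not move alike. Col4a1, which with Col4a2 makes the ubiquitous trimer, was at 205, 194, 186 and 170.5 TPM in controls, 526, 618, 629.6, 536 and 535 in WT bleomycin and 435, 443, 515 and 548 in CB1R KO libraries. Each bleomycin library was more than any control, and CB1R KO 8, 9 and 10 were below the WT bleomycin range. The log2 fold change in WT bleomycin was 1.57 (standard error 0.09, adjusted p = 4.45e-08 by edgeR), and that of Col4a2 was 1.23. Col4a3, Col4a4 and Col4a5, the chains of the trimer of the alveolar and glomerular basement membranes, rose less, by log2 fold changes of 0.30, 0.43 and 0.53 (adjusted p = 0.0238, 0.00144 and 4.76e-05 by edgeR). The call of Col4a3 was lost in 4 of 25 alternative analyses (adjusted p 0.000786 to 0.099).

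Col4a6 was the only type IV chain called lower. It was listed at 6.82, 7.17, 6.75 and 6.88 TPM in controls, 4.59, 5.26, 5.03, 4.96 and 4.84 in WT bleomycin and 7.15, 6.87, 4.49 and 5.05 in CB1R KO libraries. WT bleomycin lay wholly below the controls, whereas CB1R KO 8 and 9 were at the control level and 10 and 11 were not. The log2 fold change in WT bleomycin was -0.52 (standard error 0.12, adjusted p = 0.00214 by edgeR). Col4a5 and Col4a6, whose upstream sequences are printed above, lie head to head on the X chromosome with 1343 bases between their start sites. Among the 8 pairs of collagen genes that are neighbours in RefSeq's order, this was the only one in which both genes were called and had opposite signs. Neighbouring Col3a1 and Col5a2 rose by 2.80 and 2.88, Col4a1 and Col4a2 by 1.57 and 1.23, and Col6a1 and Col6a2 by 0.83 and 1.08.

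Of the 6 FACIT genes tested, 4 rose. Col12a1, a long FACIT chain that decorates type I fibrils, measured 19.7, 20.01, 19.0 and 16.8 TPM in controls, 32.9, 46.5, 42.8, 39.2 and 38.7 in WT bleomycin and 28.9, 26.3, 31.7 and 24.9 in CB1R KO libraries. The 3 groups did not overlap at all, with CB1R KO between the other two. The log2 fold change was 1.20 in WT bleomycin against control (standard error 0.11, adjusted p = 1.15e-06 by edgeR). Col14a1 rose by 0.99, Col16a1 by 1.26 and Col22a1, a chain of tissue junctions, by 1.61. Estimated counts per TPM of Col22a1 varied between libraries by 1.52 on the log2 scale, and its rise was smaller by 0.26 from mean TPM than from counts. Col9a3 (-0.61) and Col20a1 (-0.04) did not pass the test.

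Col6a1, the most abundant type VI chain, was at 129, 161, 141 and 134 TPM in controls, 211, 268, 279.9, 234 and 289 in WT bleomycin and 250.1, 254, 246 and 225 in CB1R KO libraries. Both bleomycin groups were above the controls and every CB1R KO library was inside the WT bleomycin range. In WT bleomycin it rose by a log2 fold change of 0.83 (standard error 0.10, adjusted p = 1.37e-05 by edgeR), Col6a2 by 1.08 and Col6a3 by 1.32. Of the scarce chains that can take the place of Col6a3, Col6a4 rose by 0.92 (adjusted p = 0.0164 by edgeR, and 0.0555 without control 26, the 1 of 25 alternative analyses that lost the call), whereas Col6a5 (0.27) and Col6a6 (0.15) did not pass the test.

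Smaller classes held both rises and falls. Col8a1, a network chain made by vascular and other mesenchymal cells, was at 5.01, 4.25, 4.43 and 4.81 TPM in controls, 13.7, 18.4, 12.6, 14.0 and 11.7 in WT bleomycin and 8.498, 7.26, 13.1 and 10.1 in CB1R KO libraries. Controls were lowest throughout, and CB1R KO 10 alone of its group was within the WT bleomycin range. Its log2 fold change was 1.57 (standard error 0.16, adjusted p = 2.74e-06 by edgeR), while its partner Col8a2 fell by 0.37 (adjusted p = 0.023 by edgeR), a call lost in 6 of 25 alternative analyses (adjusted p 0.00148 to 0.222). Col10a1, known from growth plate cartilage, rose by 2.90 from 10 counts in all 4 controls. Col7a1, the anchoring fibril chain that ties epithelial basement membrane to the tissue beneath, was at 3.38, 2.90, 3.25 and 3.20 TPM in controls, 7.53, 9.66, 9.66, 8.45 and 10.3 in WT bleomycin and 5.07, 5.26, 9.50 and 8.51 in CB1R KO libraries. Controls did not overlap the rest, CB1R KO 8 and 9 stood between, and the log2 fold change in WT bleomycin was 1.48 (standard error 0.18, adjusted p = 1.13e-05 by edgeR).

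Both multiplexins rose. Col18a1, a basement membrane collagen whose end fragment is endostatin, measured 27.1, 24.5, 21.3 and 20.3 TPM in controls, 45.0, 56.7, 55.4, 48.6 and 54.9 in WT bleomycin and 35.9, 36.1, 45.1 and 44.8 in CB1R KO libraries. CB1R KO 10 touched the bottom of the WT bleomycin range, the other 3 were below it, and no bleomycin library reached the controls. The log2 fold change in WT bleomycin was 1.24 (standard error 0.10, adjusted p = 3.66e-07 by edgeR). Col15a1, its relative in the zone between basement membrane and stroma, was at 6.35, 5.37, 5.61 and 3.48 TPM in controls, 24.6, 40.0, 28.6, 44.3 and 37.0 in WT bleomycin and 15.1, 13.3, 26.4 and 21.2 in CB1R KO libraries. CB1R KO 10 was the only one of its group that reached the WT bleomycin range. Col15a1 rose by 2.93 in WT bleomycin (standard error 0.24, adjusted p = 4.88e-07 by edgeR), with counts per TPM that varied by 0.99 on the log2 scale and a rise smaller by 0.18 from mean TPM.

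Col28a1, a chain related to type VI and placed among the others, gave 0.997, 1.94, 1.02 and 0.958 TPM in controls, 14.7, 16.7, 18.8, 11.1 and 20.4 in WT bleomycin and 8.34, 8.22, 12.8 and 6.82 in CB1R KO libraries. Control 21 was highest of its group and still under all bleomycin libraries, and CB1R KO 10 alone overlapped WT bleomycin. It was 12.1-fold higher in WT bleomycin than in control (log2 fold change 3.59, standard error 0.26, adjusted p = 1.56e-07 by edgeR). Col26a1, the other unclassed chain, was at 0.175 to 0.455 TPM in all libraries and did not pass the test (log2 fold change 0.44).

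Transmembrane chains went the other way. Col17a1, the hemidesmosome collagen of epithelial cells, was at 2.42, 1.95, 2.24 and 1.88 TPM in controls, 0.798, 0.401, 0.441, 0.515 and 0.461 in WT bleomycin and 1.65, 1.64, 0.613 and 0.579 in CB1R KO libraries. Every bleomycin library was below every control, and CB1R KO 8 and 9 stood apart from 10 and 11, near the lower end of the controls. Its log2 fold change in WT bleomycin was -2.05 (standard error 0.32, adjusted p = 0.000104 by edgeR). Col23a1 was listed at 28.9, 34.5, 33.2 and 32.3 TPM in controls, 18.6, 18.1, 22.9, 17.3 and 26.5 in WT bleomycin and 20.6, 18.7, 18.9 and 18.7 in CB1R KO libraries. Controls were highest and the bleomycin groups overlapped fully, with a log2 fold change of -0.62 in WT bleomycin (standard error 0.11, adjusted p = 0.000467 by edgeR). Col13a1, the most abundant of the class, was at 45.6, 40.8, 39.6 and 35.3 TPM in controls, 33.0, 33.9, 35.8, 26.6 and 32.5 in WT bleomycin and 51.1, 49.6, 36.7 and 40.8 in CB1R KO libraries. WT bleomycin 5 overlapped the lowest control, and all 4 CB1R KO libraries were above all WT bleomycin libraries. Col13a1 fell by 0.34 on the log2 scale in WT bleomycin (standard error 0.10, adjusted p = 0.0134 by edgeR).

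**Figure D2:**
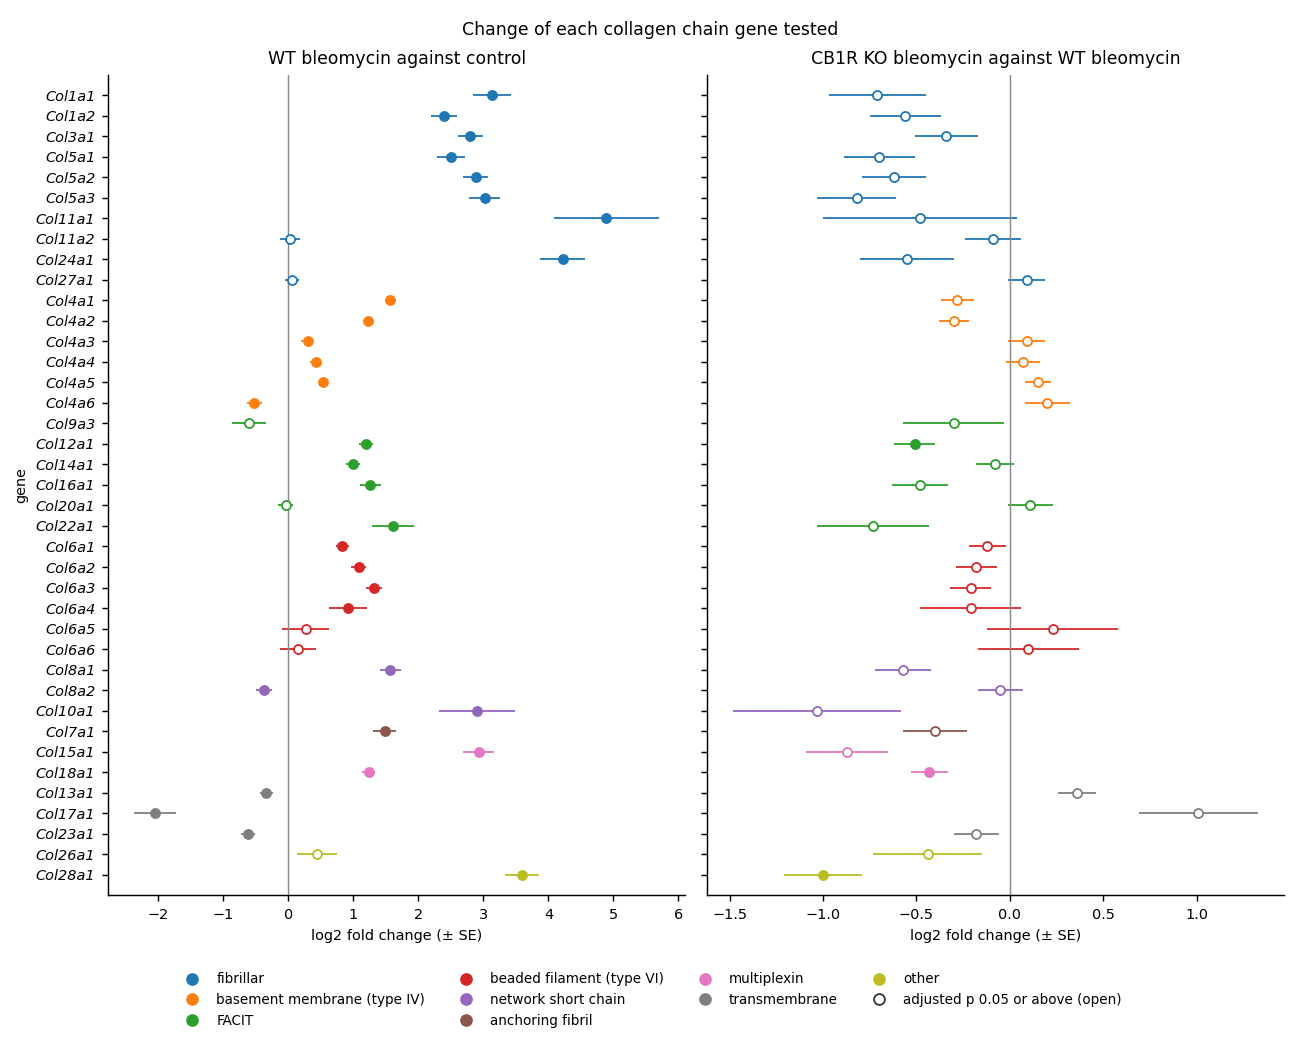
Log2 fold change ± standard error of each of the 39 collagen chain genes tested, coloured by class, for WT bleomycin against control (left) and CB1R KO bleomycin against WT bleomycin (right). The 2 axes have different ranges. Filled points passed an adjusted p of 0.05 by edgeR. On the left 27 filled points lie above 0 and 5 below, and on the right the 3 filled points (Col12a1, Col18a1 and Col28a1) lie below 0.

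The second question was whether collagen expression after bleomycin differed in lungs labelled CB1R KO. Collagen transcripts summed to 3475 ± 491 TPM (SD, n = 4) in CB1R KO against 4402 ± 493 TPM (SD, n = 5) in WT bleomycin lungs, and the values of 3091, 3033, 4029 and 3747 TPM overlapped the WT bleomycin range of 3721 to 4777 TPM in libraries 10 and 11 only. Of the 39 genes tested, 3 (7.69%) were lower in CB1R KO than in WT bleomycin, where 0.620% of all genes were called lower, and 0 were higher, where 0.359% were called. At an unadjusted p under 0.05, 17 were lower and 2 higher (9.08% and 7.95% of all genes). The log2 fold change was below 0 for 29 of 39 genes, with a median of -0.30 beside 0.00 over all genes.

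Col12a1, Col18a1 and Col28a1 were the genes called lower. Their values in each library are given above. Col12a1 fell by 0.51 on the log2 scale (standard error 0.11, adjusted p = 0.0391 by edgeR), Col18a1 fell by 0.43 (standard error 0.10, adjusted p = 0.0478), and Col28a1 was at 0.499 of the WT bleomycin level (standard error of the log2 fold change 0.21, adjusted p = 0.0407). Estimated counts per TPM of Col28a1 varied between libraries by 0.66 on the log2 scale. From mean TPM the log2 ratios were -0.85 for Col28a1, -0.52 for Col12a1 and -0.37 for Col18a1. Next in order of p were Col15a1, at -0.87 (standard error 0.22, adjusted p = 0.0676 by edgeR), and Col5a3, at -0.82 (standard error 0.21, adjusted p = 0.0735). The most abundant fibrillar chains had log2 fold changes of -0.71 for Col1a1 (adjusted p = 0.19 by edgeR), -0.56 for Col1a2 (adjusted p = 0.149) and -0.34 for Col3a1 (adjusted p = 0.347).

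The 3 log2 fold changes stayed below 0 in all 25 alternative analyses, from -0.65 to -0.44 for Col12a1, -0.49 to -0.36 for Col18a1 and -1.14 to -0.79 for Col28a1, whereas the calls were not stable. DESeq2 on all libraries called 11 collagen genes lower and 2 higher (1.88% and 1.37% of all genes), limma on log2(TPM + 1) called 0 collagen genes beside 59 of all 15315 genes lower and 22 higher, and a term for the spelling of the labels, which differs in 1 control and 2 WT bleomycin libraries and is of unstated meaning, left 0 in edgeR beside 32 of all genes lower and 9 higher. With edgeR and 1 library left out, 10 genes were lower without CB1R KO 10, where 2.53% of all genes tested were called lower and 1.71% higher, and 5 were lower without WT bleomycin 4, where 0.891% were called lower and 0.616% higher. The count was 1 without control 21, beside 76 of 15411 genes in all. It was 0 without CB1R KO 8, 9 or 11, where 8, 1 and 2 of all genes were called lower, without WT bleomycin 2, 5, 4-B2 or 7, where 48, 17, 23 and 27 were, and without control 24, where 64 were.

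**Figure D3:**
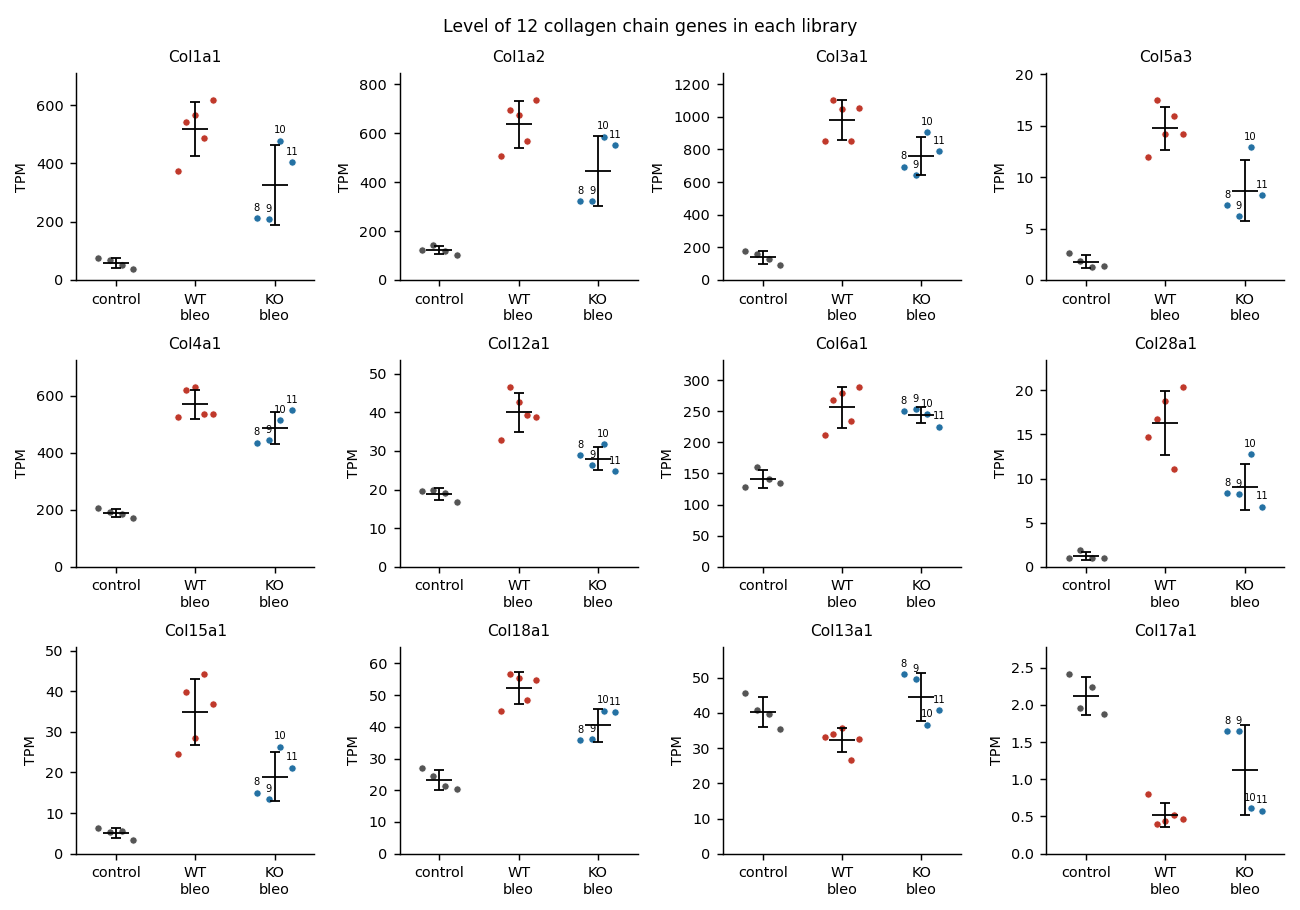
TPM of 12 collagen chain genes in each library, with the mean ± SD of each group and axes from 0; numbers name CB1R KO libraries. CB1R KO 8 and 9 are below 10 and 11 for Col1a1 (212 and 208 against 479 and 405 TPM) and above them for Col17a1 (1.65 and 1.64 against 0.613 and 0.579 TPM), whereas Col12a1 does not overlap between the groups.

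The CB1R KO libraries did not vary alike. Libraries 8 and 9 had the lower fibrillar sums, 1381 and 1318 TPM, and libraries 10 and 11 had 2229 and 1953 TPM, within the WT bleomycin range of 1955 to 2704 TPM for library 10 and just below it for 11. The reverse held for the transmembrane sum, 73.5 and 69.9 TPM in 8 and 9 against 56.4 and 60.1 TPM in 10 and 11, with 44.5 to 59.5 TPM in WT bleomycin. By order alone the type VI and FACIT sums were split as well, each by a small gap. Type VI sums were 512, 513, 509 and 470.1 TPM, higher in 8 and 9. FACIT sums were 78.3, 80.1, 83.1 and 80.4 TPM, lower in 8 and 9. Among the marker lists, the fibroblast, endothelial, mesothelial, basal cell and macrophage sums had 8 and 9 both above or both below 10 and 11. The gap was small for mesothelial (320.2 against 305.1 TPM) and macrophage sums (1710 against 1734 TPM). Such an order can often arise by chance and was not tested. In CB1R KO the endothelial sums were 1673, 1762, 1552 and 1572 TPM. Mesothelial sums were 320.2, 360.3, 305.1 and 265.3 TPM, and basal cell sums 7.94, 8.82, 5.62 and 4.33 TPM. Macrophage sums were 1365, 1710, 2208 and 1734 TPM, lower in 8 and 9. The summed level of 12 fibroblast markers was 2575 and 2340 TPM in CB1R KO 8 and 9, 1472 and 1805 TPM in 10 and 11, 1137 to 1584 TPM in WT bleomycin and 3723 to 4446 TPM in controls, most of it from Inmt. Of these markers 2 were called higher in CB1R KO than in WT bleomycin, Inmt and Scube2, and 0 lower by edgeR (5 and 1 at an unadjusted p under 0.05). Of 8 type II cell markers 3 were called higher, with sums of 43610, 47630, 33230 and 46590 TPM in CB1R KO and 25060 to 31860 TPM in WT bleomycin, and of 8 smooth muscle markers 2 were called lower, Actg2 and Tagln. Adipocyte marker sums were 108, 451, 200.4 and 490 TPM in CB1R KO and 60.7 to 241 TPM in WT bleomycin, and those of cardiac and striated muscle 460.1, 799, 542 and 451 TPM and 127 to 455 TPM, with 0 genes of either list called by edgeR and 6 higher in each at an unadjusted p under 0.05. The type I, type II, adipocyte, cartilage, smooth muscle, and cardiac and striated muscle sums did not split CB1R KO 8 and 9 from 10 and 11. Over all genes tested, edgeR called 0.359% higher and 0.620% lower in CB1R KO than in WT bleomycin. At an unadjusted p under 0.05 the shares were 7.95% and 9.08%. The part of the marker shifts in the collagen values was not tested.

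The third comparison, CB1R KO bleomycin against the same controls, shares its control libraries with the first. 25 of 39 genes (64.1%) were higher and 4 (10.3%) lower, where 19.0% and 16.3% of all genes were called, and the median log2 fold change was 0.80. The count of 4 lower genes was 2 without control 3 and 2 without CB1R KO 11. All 8 fibrillar genes called in WT bleomycin were also called here, from 1.80 for Col5a1 to 4.41 for Col11a1, the latter not called by limma on log2(TPM + 1) (adjusted p = 0.0638). Values for the WT and CB1R KO groups against control were, in that order, 3.13 and 2.42 for Col1a1, 2.80 and 2.46 for Col3a1, 1.57 and 1.29 for Col4a1, 1.20 and 0.68 for Col12a1, 2.93 and 2.05 for Col15a1 and 3.59 and 2.59 for Col28a1. Col17a1 was at -2.05 and -1.04 (adjusted p = 0.0197 by edgeR in CB1R KO, a call lost without CB1R KO 10 or without CB1R KO 11, with adjusted p up to 0.0621) and Col23a1 at -0.62 and -0.80. Col13a1 gave -0.34 and 0.02, the latter with an adjusted p of 0.91, and Col4a6 gave -0.52 and -0.32, the latter with an adjusted p of 0.0586.

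Chain ratios put both partners of a molecule on the TPM scale within each library and were described without a test. Col1a1 to Col1a2 was 0.625, 0.479, 0.437 and 0.348 in controls, 0.743, 0.781, 0.836, 0.860 and 0.840 in WT bleomycin and 0.656, 0.648, 0.817 and 0.735 in CB1R KO libraries. Controls were lowest and did not overlap the others. Col6a3 to Col6a1 rose from 0.241 ± 0.0415 (SD, n = 4) to 0.354 ± 0.0243 (SD, n = 5) and was 0.327 ± 0.0149 (SD, n = 4) in CB1R KO. Col4a1 to Col4a2 went from 1.07 ± 0.0365 in controls to 1.33 ± 0.0439 in WT bleomycin and 1.35 ± 0.0755 in CB1R KO, with no overlap between controls and either group. Col6a1 to Col6a2 moved the other way, from 1.60 ± 0.0604 to 1.32 ± 0.0495 and 1.38 ± 0.0529. Within the Col4a3, Col4a4 and Col4a5 trimer, Col4a3 to Col4a4 overlapped between the groups, at 1.46 to 1.88 over all 13 libraries. Col4a5 to Col4a4 was 1.129 to 1.31 in controls, 1.319 to 1.546 in WT bleomycin and 1.352 to 1.497 in CB1R KO. Every bleomycin library was thus above every control for this ratio, by a small gap.

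**Figure D4:**
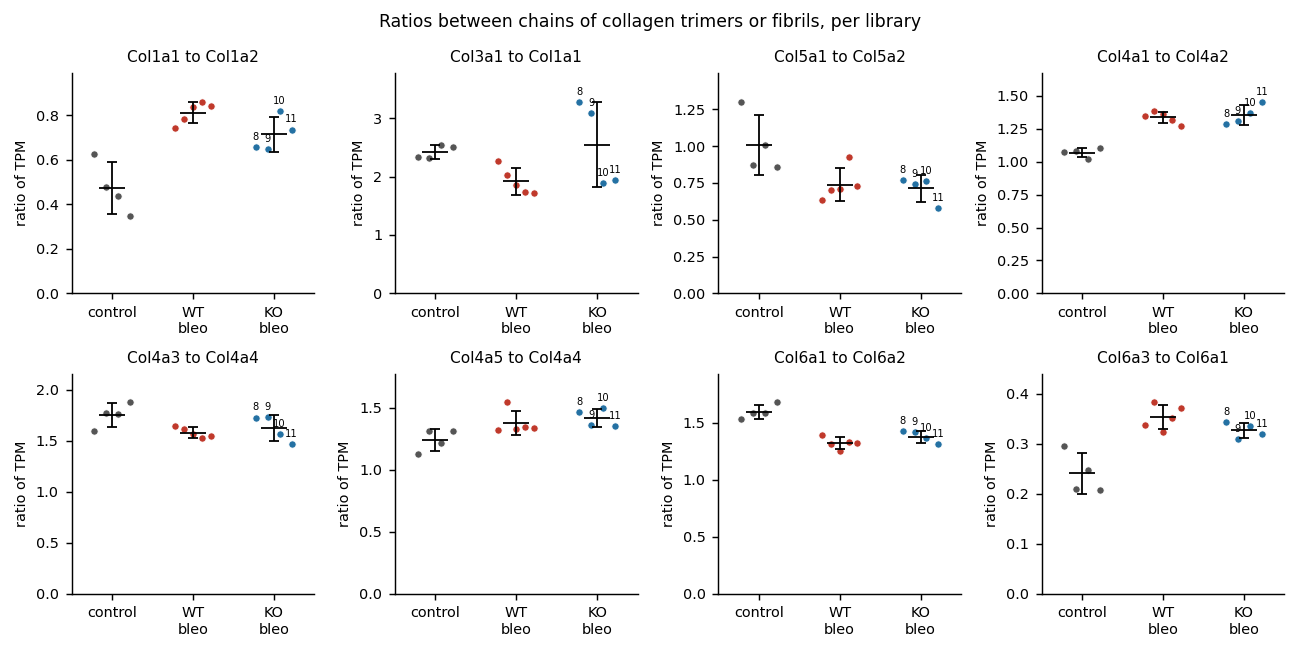
Ratio of TPM between 2 collagen chains in each library, with the mean ± SD of each group and axes from 0; numbers name CB1R KO libraries. Col1a1 to Col1a2 lies between 0.348 and 0.625 in controls and between 0.743 and 0.860 in WT bleomycin, and Col3a1 to Col1a1 is 3.28 and 3.08 in CB1R KO 8 and 9 against 1.89 and 1.94 in 10 and 11.

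Col3a1 to Col1a1 separated the CB1R KO libraries, at 3.28 and 3.08 in 8 and 9, above all controls (2.31 to 2.54), and 1.89 and 1.94 in 10 and 11, within the WT bleomycin range (1.71 to 2.26). Col5a1 to Col5a2 was 1.01 ± 0.205 in controls, 0.738 ± 0.110 in WT bleomycin and 0.713 ± 0.0905 in CB1R KO, with overlap of controls and WT bleomycin.

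Genes that fold, modify and process collagen moved mostly with it. Of 31 such genes tested, 21 (67.7%) rose and 4 (12.9%) fell in WT bleomycin, beside 25.0% and 23.9% of all genes. P4ha3, a prolyl hydroxylase subunit, stood at 0.914, 1.24, 0.797 and 0.816 TPM in controls, 11.4, 15.0, 15.0, 14.8 and 14.8 in WT bleomycin and 5.82, 4.74, 9.89 and 8.18 in CB1R KO libraries. The 3 groups did not overlap, and the log2 fold changes were 3.91 in WT bleomycin against control (standard error 0.24, adjusted p = 6.22e-08 by edgeR) and -1.03 in CB1R KO against WT bleomycin (standard error 0.19, adjusted p = 0.0266). Lox, the lysyl oxidase that starts cross-linking, measured 23.1, 20.1, 21.5 and 21.1 TPM in controls, 96.1, 118, 111, 121 and 137 in WT bleomycin and 47.5, 55.2, 102 and 63.5 in CB1R KO libraries. CB1R KO 10 alone overlapped WT bleomycin, and the log2 fold changes were 2.41 (adjusted p = 3.23e-07 by edgeR) and -0.85 (adjusted p = 0.0396). Pcolce2, an enhancer of C-propeptide removal, ran the opposite course at 103, 102, 105.4 and 101 TPM in controls, 32.3, 28.7, 29.1, 24.8 and 31.5 in WT bleomycin and 70.8, 65.5, 31.4 and 43.7 in CB1R KO libraries. Controls were highest, CB1R KO 10 alone was within the WT bleomycin range, and the log2 fold changes were -1.85 (adjusted p = 1.33e-06 by edgeR) and 0.81 (adjusted p = 0.0413).

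Those 3 genes were the ones of this list called between CB1R KO and WT bleomycin, 1 higher (3.23%) and 2 lower (6.45%), beside 0.359% and 0.620% of all genes. Loxl2, a further lysyl oxidase, completed the 3 largest rises in WT bleomycin at 2.03, and Colgalt2, a collagen galactosyltransferase, and P3h2, a prolyl 3-hydroxylase that acts on type IV, completed the largest falls at -1.48 and -0.69. Serpinh1, the collagen chaperone HSP47, rose by 1.28 and was at -0.19 in CB1R KO against WT bleomycin (adjusted p = 0.438 by edgeR). It was chosen after its values were seen.

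Collagen receptors and uptake genes moved in both directions. Of 10 tested, 5 (50%) rose and 2 (20%) fell in WT bleomycin, where 25.0% and 23.9% of all genes were called, led by Lair1, an inhibitory receptor of leukocytes, at 1.07, Mrc2, an endocytic collagen receptor, at 0.97, and the fibroblast integrin subunit Itga11 at 0.64, against Gp6, the platelet receptor, at -1.79 and Itga1 at -0.76. Between CB1R KO and WT bleomycin edgeR called 0 of the 10, beside 0.359% of all genes higher and 0.620% lower. At an unadjusted p under 0.05, 2 were lower and 0 higher, beside 9.08% and 7.95% of all genes.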

How the data were processed

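Lung RNA was sequenced in 13 libraries as paired 150-base reads from oligo(dT)-selected RNA. The authors quantified reads with Kallisto (version not given in the sources used here) against GRCm39 transcripts of Ensembl release 105 and deposited estimated counts and TPM summed per gene over protein-coding transcripts. Estimated counts, 70.5% of them not whole as deposited, were rounded for testing. 1 TPM column that matches no sample was not used. Collagen genes were found by symbol, and classes, pathway lists and marker lists were set by structure and textbook function. These members and lists were chosen with earlier results of these data known.

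Counts were tested with edgeR 4.0.16 (filterByExpr, TMM, quasi-likelihood, 3 groups, all 13 libraries, no covariates) with Benjamini-Hochberg adjustment over 15315 genes. In simulated counts at log2 changes of 1, 106 of 107 genes were recovered for WT bleomycin against control and 114 of 116 for CB1R KO against WT bleomycin. In the 2 simulations 3 and 6 unchanged genes were called. Only the more abundant genes were changed, and counts were drawn with the typical spread of genes at each level. The recovery therefore does not cover scarce chains, genes of wider spread or changes under 1. Replicates were taken to be separate mice, although WT bleomycin libraries 4 and 4-B2 share a number in their labels. All pairs differed by more than sampling noise, which cannot tell separate mice from separate preparations of the same mouse. The 25 alternatives were other filters, scalings, DESeq2 1.42.0, limma 3.58.1 on log2(TPM + 1) and log2(TPM + 0.1), 2-group fits, label spelling, thinning of CB1R KO library 11 and each library left out. Values given in every library are those of Col1a1, Col1a2, Col3a1, the highest-TPM gene of each class, genes called or among the 5 lowest p between CB1R KO and WT bleomycin, and the 3 largest called changes in each direction in WT bleomycin. From the pathway lists, genes called between CB1R KO and WT bleomycin and the 3 largest called changes in each direction in WT bleomycin are named. Class sums and ratios have no test. Promoters are of another build (GRCm38.p6) than the files and are used for sequence and neighbour order only.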

Additional observations from a re-analysis of the deposited data

Results flagged for a closer look

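Each value that the text gives per library was compared with the others of its group, and a sample was marked where its gap to the nearest value passed Dixon's 95% limit for the group's size. Of 84 groups of values 6 were marked, and chance marks about 1 in 20. Col28a1 in control 21 was at 1.94 TPM, with the other controls at 0.958 to 1.02 TPM. Col11a1 in control 24 was at 0.0175 TPM beside 0.0449 to 0.0469 TPM. Col17a1 in WT bleomycin 4 was at 0.798 TPM, with the rest of its group at 0.401 to 0.515 TPM. Col23a1 in CB1R KO 8 was at 20.6 TPM beside 18.7 to 18.9 TPM. The ratio of Col5a1 to Col5a2 was 0.578 in CB1R KO 11, the deepest library, and 0.742 to 0.767 in the other CB1R KO libraries. The ratio of Col4a5 to Col4a4 was 1.55 in WT bleomycin 2 and 1.32 to 1.34 in the rest.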

How the results depend on the processing

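The counts of collagen genes between the bleomycin groups depended on the analysis. The 3 genes lower in CB1R KO than in WT bleomycin (95 of all genes) became 11 with DESeq2 on all libraries (372 of all genes), 9 with DESeq2 on 2 groups (373), 1 with edgeR on 2 groups (68), and 0 with limma on log2(TPM + 1) (59), limma on log2(TPM + 0.1) (3), label spelling as a term (32) or lower-case labels only (5), and ran from 0 to 10 with 1 library left out. The 0 genes higher became 2 with DESeq2 on all libraries and 0 to 1 with a library left out. Counts against control stayed within 1.5 times in every alternative, except that the 4 genes lower in CB1R KO than in control ran from 2 to 5 with a library left out. The median log2 fold change moved by more than the spread between libraries with limma on log2(TPM + 1) alone, to 0.85 in WT bleomycin against control and -0.15 in CB1R KO against WT bleomycin. No gene changed sign within a comparison in which it was called. Values that were not called in either analysis changed sign as follows. In WT bleomycin against control, Col11a2 ran from -0.04 to 0.15, Col27a1 from -0.01 to 0.14 and Col6a5 from -0.10 to 0.54 with a library left out, and Col20a1 was at 0.17 and 0.23 with limma, 0.07 with lower-case labels only and -0.12 to 0.05 with a library left out. In CB1R KO against WT bleomycin, Col20a1 was at -0.0007 with limma on log2(TPM + 1), Col6a6 at -0.05 with lower-case labels only, and Col8a2 at 0.10 and 0.11 with limma and -0.18 to 0.04 with a library left out. In CB1R KO against control, Col11a2 was at 0.01 and 0.02 with limma and -0.17 to 0.06 with a library left out, and Col20a1 at -0.01 to 0.16 with a library left out. Col13a1 was at -0.0001 with upper-quartile scaling, -0.02 and -0.03 with label spelling as a term and lower-case labels only, and -0.04 to 0.12 with a library left out. Col26a1 was at -0.004 without a filter, -0.01 with upper-quartile scaling, -0.0003 and -0.03 with DESeq2, -0.005 and -0.04 with limma, -0.11 with CB1R KO 11 thinned, and -0.36 to 0.17 with a library left out. The cause was not tested. No paired analysis was possible because the groups do not share replicate numbers. Differences of the scarce chains are limited by depth. With label spelling as a term and with lower-case labels only, Col12a1 was at -0.51 and -0.50 in CB1R KO against WT bleomycin, Col18a1 at -0.46 and -0.44, and Col28a1 at -1.05 and -0.98.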
